A study of Bos taurus with 10 samples.

Results

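FABP4 and FASN, a pair of lipid genes of adipocytes and sebaceous glands, were followed through 10 RNA libraries from skin biopsies of Brangus cattle, a composite of Brahman and Angus ancestry. The genes were chosen by identifier: 5 Ensembl identifiers were named, and 2 of the 5, ENSBTAG00000037526 (FABP4) and ENSBTAG00000015980 (FASN), are described here, out of 7052 genes in the count table. The other 3, ENSBTAG00000019813 (ADIPOQ, the adipocyte hormone adiponectin), ENSBTAG00000012855 (LPL, the lipase that frees fatty acids from blood lipoproteins) and ENSBTAG00000045728 (SCD, which desaturates fatty acids), are not analysed here and have no values below. The table gives identifiers alone, and the pairing of these with symbols came with the choice of genes. The label that joined adipocytes and sebaceous glands could not be checked against other markers of those cells, for want of symbols.

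The study set heat-stressed animals against control animals. The groups are named by their titles, 5 libraries titled Ctrl and 5 titled Strs. The disease state entry has it the other way round, with heat stress entered for the Ctrl-titled libraries and control for the Strs-titled ones. "Higher" and "lower" below therefore mean Strs-titled relative to Ctrl-titled, and the direction relative to heat stress cannot be given. All 10 libraries share breed, tissue and RNAlater storage. The titles also carry a PA number, from 1 to 16 in Ctrl-titled and from 28 to 33 in Strs-titled libraries. This number thus separates with the group, and its part in the results was not tested. The labels give no age, no exposure time or temperature, no biopsy depth or body site and no batch, and leave unsaid whether each library is from its own animal. The p-values thus reflect the spread among these libraries, which may be technical.

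Skin holds lipid-handling cells of different kinds. Adipocytes lie under and within the deep dermis, take up fatty acids and store them as triglyceride. Sebaceous gland cells, which sit beside the hair follicle, make their own fatty acids and release them as sebum when they burst. FABP4 is a small carrier protein that binds fatty acids inside adipocytes, and it is also made by capillary endothelial cells and macrophages. FASN, fatty acid synthase, is the multi-domain enzyme that builds palmitate from acetyl-CoA and malonyl-CoA, and it is active in adipocytes, in sebaceous glands and in other epithelial cells.

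FABP4 and FASN differed between the groups in opposite directions. The fatty acid carrier was 11.6-fold higher in Strs-titled libraries (95% interval 5.84 to 23.0), and the fatty acid synthase was 7.41-fold lower (5.30 to 10.4). Neither gene's levels overlapped between the groups, which in log2 CPM held for 53.3% of the 7047 tested genes. In a whole skin biopsy, fewer cells of a type and less RNA per cell cannot be told apart.

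Levels are given in CPM: a gene's count divided by the sum of all counts in the table for that library, its table total, and multiplied by 1000000. That total ran from 490752 to 659756 in the Ctrl-titled set, where a read was worth 1.52 to 2.04 CPM, and from 2453542 to 8051190 in the Strs-titled set, where it was worth 0.124 to 0.408 CPM. The total moved with the group without overlap, and its part in the results was not tested. The table total is a sum over the genes of the table and is not the full depth of a library. Intervals on single libraries cover counting error only.

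FABP4, the carrier, was counted 9, 20, 5, 7 and 1 times in Ctrl-titled replicates 1 to 5. These counts were 18.3, 36.5, 9.13, 12.0 and 1.52 CPM. In Strs-titled replicates 1 to 5 it was counted 1066, 1029, 1246, 1984 and 594 times, or 159, 144, 167, 246 and 242 CPM. The lowest Strs-titled library thus stood above the highest Ctrl-titled library, and the Ctrl-titled counts were small enough for single reads to matter.

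Among Ctrl-titled libraries FABP4 averaged 15.5 CPM ± 13.2 (SD, n = 5), against 192 CPM ± 48.7 (SD, n = 5) among the Strs-titled ones. The log2 fold change of FABP4 was 3.53, with an SE of 0.46 and a Benjamini-Hochberg adjusted p of 1.7e-05 over 7047 tested genes (edgeR's quasi-likelihood F test). Of those genes, 67.8% passed an adjusted p of 0.05, 35.6% as higher and 32.2% as lower in Strs-titled libraries, so passing the test is the common case in this table. On the higher side alone, 113 genes (1.60%) had a log2 fold change as high as that of FABP4. Genes lower by as much are not in this count, so it does not say how common a difference of this size is. The median over all tested genes was 0.11.

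In reads, the Strs-titled CPM levels correspond to 70.8 to 121 counts at the lowest table total, which restates them on the scale of a Ctrl-titled library. Pooled over each group, 42 reads among 2830001 stood against 5919 among 31814061. The ratio of these pooled levels was 12.5 (95% counting interval 9.26 to 17.4). Ctrl-titled replicate 2 held 20 of the 42 reads, and without it the ratio was 19.3 (12.7 to 30.8), outside that interval; without Ctrl-titled replicate 5 it was 9.85 (7.25 to 13.7).

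FABP4 also varied more among Ctrl-titled than among Strs-titled libraries. Its CPM had a coefficient of variation of 85.2% in the former and 25.4% in the latter. Counting error alone at the Ctrl-titled mean of 8.40 reads would give about 34.5%. The exact 95% Poisson interval of the single read in replicate 5, 0.0253 to 5.57 counts, did not meet that of the 20 reads in replicate 2, 12.2 to 30.9 counts. These were picked as the lowest and highest counts of the group, at table totals of 659756 and 548407, so their separation is not a test of spread. Leaving out Ctrl-titled replicate 2 gave a log2 fold change of 4.16 (edgeR adjusted p = 3.1e-06), a 1.54-fold larger difference, and leaving out replicate 5 gave 3.21 (edgeR adjusted p = 4.6e-06).

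**Figure D1:**
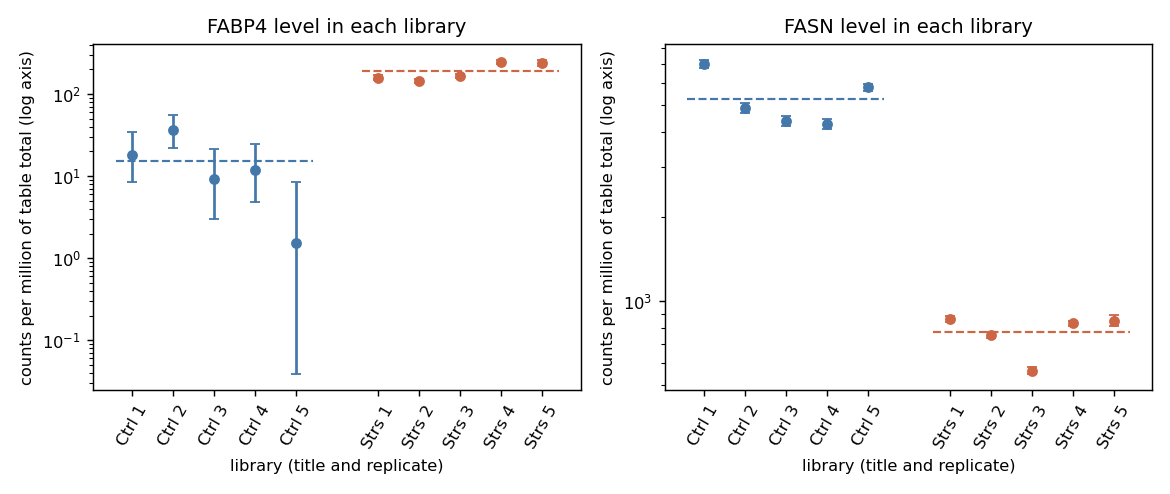
Level of FABP4 (left) and FASN (right) in each library, in CPM on log axes with different ranges; points are libraries, bars are exact 95% binomial intervals for counting error, and dashed lines are group means. FABP4 lies between 1.52 and 36.5 CPM in Ctrl-titled and between 144 and 246 CPM in Strs-titled libraries, whereas FASN lies between 4281 and 7020 CPM and between 564 and 860 CPM.

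FASN, the synthase, was counted 3445, 2675, 2397, 2499 and 3811 times in Ctrl-titled replicates 1 to 5. These counts were 7020, 4878, 4379, 4281 and 5776 CPM. In Strs-titled replicates 1 to 5 it was counted 5762, 5387, 4213, 6693 and 2088 times, or 860, 755, 564, 831 and 851 CPM. Every Ctrl-titled library stood above every Strs-titled library in CPM, and Strs-titled replicate 3 was the lowest of the 10.

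Among Ctrl-titled libraries FASN averaged 5267 CPM ± 1145 (SD, n = 5), against 772 CPM ± 124 (SD, n = 5) among the Strs-titled ones. The log2 fold change of FASN was -2.89, with an SE of 0.23 and a Benjamini-Hochberg adjusted p of 9.2e-08 (edgeR's quasi-likelihood F test). Of the tested genes, 521 (7.39%) had a log2 fold change as low. The synthase took 0.428% to 0.702% of the counts of a Ctrl-titled library and 0.0564% to 0.0860% of those of a Strs-titled library.

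The FASN difference appears once counts are set against the table total. Its unscaled counts overlapped between the groups. They averaged 2965 ± 626 (SD, n = 5) for the Ctrl titles and 4829 ± 1771 (SD, n = 5) for the Strs titles, a 1.63-fold higher mean in the latter, while the mean table total was 11.2-fold higher. For FABP4 the mean unscaled count was 141-fold higher, well beyond the ratio of the totals. With at least 2088 reads in each library, counting error was a small part of the FASN spread. The coefficient of variation of its CPM was 21.7% over the Ctrl-titled libraries, where counting error alone would give 1.84%. The highest library exceeded the lowest 1.64-fold in that group and 1.53-fold among the Strs-titled libraries.

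The groups failed to overlap in log2 CPM for 53.3% of all tested genes, 27.5% higher and 25.8% lower in Strs-titled libraries. FABP4 and FASN were both among them. Against that background, the absence of overlap is not particular to the lipid genes.

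**Figure D2:**
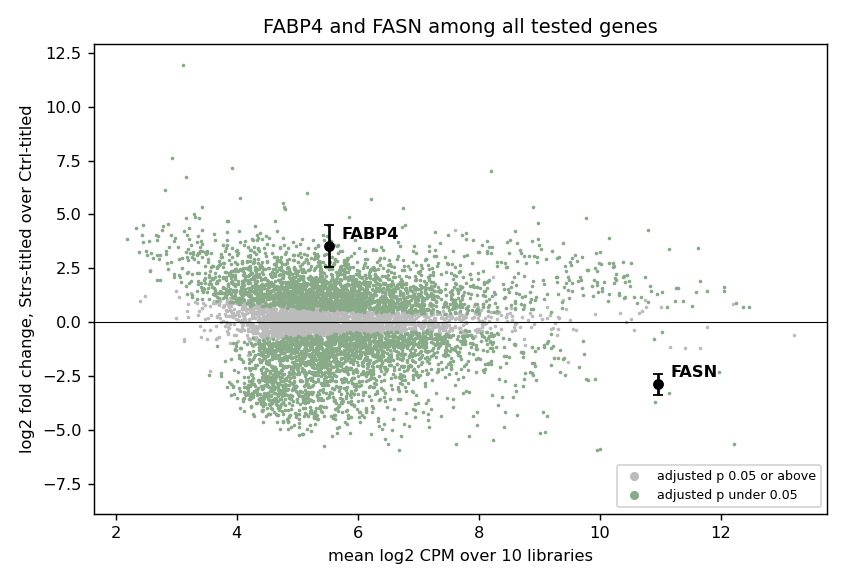
Log2 fold change, Strs-titled over Ctrl-titled, against the mean log2 CPM over the 10 libraries for each of 7047 tested genes; black points are FABP4 and FASN with 95% intervals from the edgeR fit, green and grey points are other genes with an adjusted p under and not under 0.05. FABP4, at 3.53, lies near the upper edge of the cloud, and FASN, at -2.89, lies among the abundant genes below zero.

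A comparison within each library does not depend on scaling. For every 1000 FASN reads, the Ctrl-titled replicates 1 to 5 held 2.61, 7.48, 2.09, 2.80 and 0.262 FABP4 reads. The Strs-titled replicates held 185, 191, 296, 296 and 284. The transcripts differ in length, so these values do not compare amounts of the transcripts with each other, but length cancels when the groups are compared.

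The log2 ratio of FABP4 over FASN counts, with 0.5 added to each, averaged -8.80 ± 1.56 (SD, n = 5) over the Ctrl-titled set, and over the Strs-titled set it averaged -2.03 ± 0.35 (SD, n = 5). The difference of 6.77 corresponds to a 109-fold change in the balance of carrier to synthase reads (two-sided exact permutation p = 0.00794, the smallest that 5 against 5 libraries allow). It rested in part on the single FABP4 read of Ctrl-titled replicate 5: without that library the difference was 6.14, or 70.6-fold (two-sided exact permutation p = 0.0159, the smallest that 4 against 5 allow). In CPM, FABP4 was higher and FASN lower in every Strs-titled library than in any Ctrl-titled one. The ratio therefore had to separate the groups, so both p-values were settled by those levels and add no support to them.

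The place of each gene in the order of all 7052 genes of its library restates the same counts and had the same directions. The rank is not corrected for length, and it serves only to compare a gene with itself across libraries. FABP4 ranked 5713, 4384, 6478, 6386 and 6987 by count in Ctrl-titled replicates 1 to 5, ties averaged. In Strs-titled replicates it ranked 925, 1064, 949, 586 and 598. The carrier thus stood in the lower part of the table in all 5 Ctrl-titled libraries and in the upper part in all 5 Strs-titled ones.

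FASN ranked 10, 12, 14, 13 and 13 in Ctrl-titled replicates, where it was among the genes with most reads. It ranked 169, 183, 239, 179 and 167 in Strs-titled replicates. The mean rank differed between the groups for FABP4 (two-sided exact permutation p = 0.00794) and for FASN (two-sided exact permutation p = 0.00794). The ratio and both ranks make 3 such tests, each at the smallest p the design allows, and the ranks were examined after the values had been seen. Because the ranks come from the counts already given, their p-values are not separate support. The share of all genes whose ranks did not overlap was not computed.

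**Figure D3:**
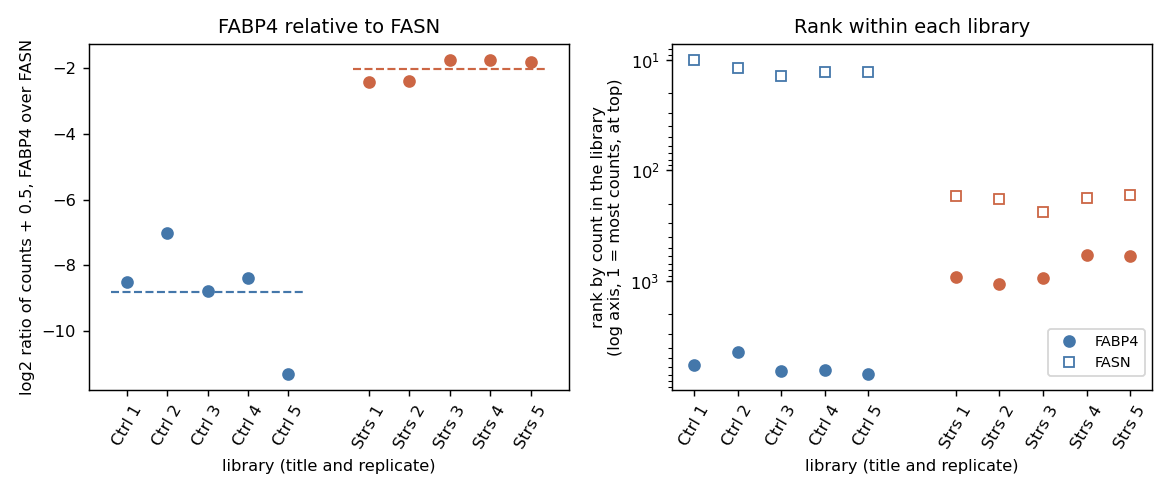
Left, log2 ratio of FABP4 over FASN counts (0.5 added to each) in each library, with dashed group means at -8.80 and -2.03; right, rank of each gene by count within its library on a log axis, with the most counted gene at the top. The ratio of every Strs-titled library lies above that of every Ctrl-titled library, and the FABP4 circles and FASN squares approach each other on the right.

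Genes whose profile over the 10 libraries came closest to each lipid gene were found among 7046 others. Each profile was log2 CPM minus the gene's own mean, and likeness was the root-mean-square difference. ENSBTAG00000004379, the closest to FABP4, differed from it by 0.44 in log2 and had 4.08, 9.12, 3.65, 3.43 and 0 CPM in Ctrl-titled replicates 1 to 5 and 26.2 to 53.2 CPM in Strs-titled libraries. ENSBTAG00000049437, the next, differed by 0.52 and had 1.52 to 18.2 CPM and 72.2 to 105 CPM. Both genes were picked for their likeness to FABP4 over these libraries, so the order of libraries they share with it follows from the choice. Their Ctrl-titled levels rest on few reads, as those of FABP4 do.

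FASN had many more genes close to it. Within a difference of 0.5 in log2 lay 207 genes, against 1 for FABP4. This limit does not treat the genes alike, because FABP4 had 1 to 20 reads in Ctrl-titled libraries and FASN at least 2088 in any library. The median difference over all genes compared was 2.22 for FABP4 and 1.59 for FASN. The part of counting error in these differences was not tested. The closest to FASN, ENSBTAG00000013524, differed by 0.17 and had 142 to 209 CPM in Ctrl-titled and 15.8 to 30.1 CPM in Strs-titled libraries. ENSBTAG00000017771, the next, differed by 0.19 and had 103 to 134 CPM and 13.0 to 19.6 CPM. FABP4 and FASN stood 3.57 apart, which put FABP4 at place 6961 of 7046 in likeness to FASN and FASN at place 6463 in likeness to FABP4. What these 4 other identifiers encode was not analysed here.

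**Figure D4:**
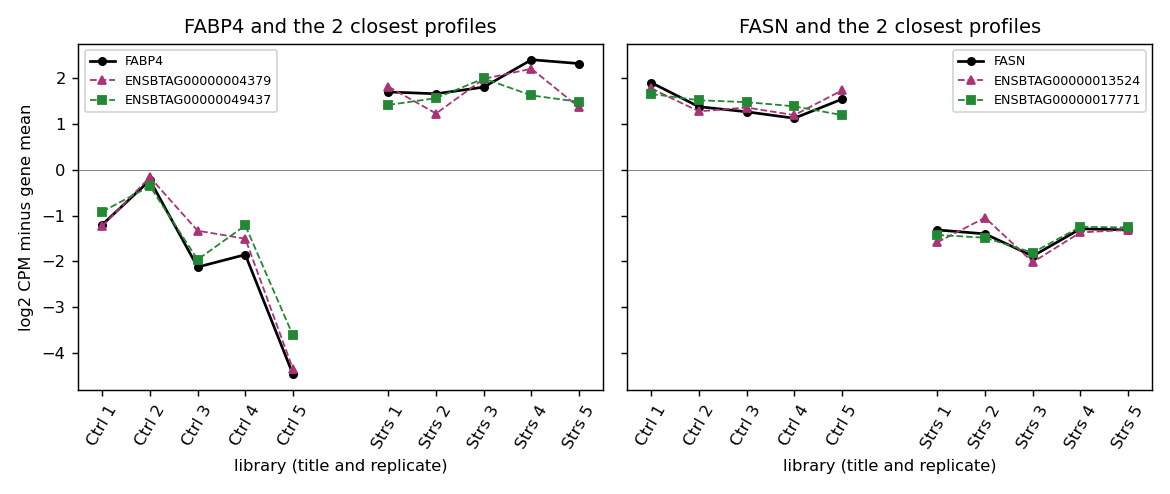
Log2 CPM minus the gene's own mean over the 10 libraries for FABP4 (left) and FASN (right), in black, with the 2 closest profiles of each in colour. The coloured profiles were picked as the closest, 0.44 and 0.52 apart from FABP4 and 0.17 and 0.19 apart from FASN, so their likeness is not a finding.

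FABP4 was higher and FASN lower in Strs-titled libraries in each of the 19 alternative fits. Over these fits, the log2 fold change ran from 3.21 to 4.16 for FABP4 (adjusted p 1.9e-14 to 0.00036, by edgeR, DESeq2 or limma) and from -2.94 to -2.73 for FASN (adjusted p 1.9e-46 to 6.9e-06, by the same tools). Strs-titled replicate 5 had the lowest table total of its group. Without it the log2 fold changes were 3.46 and -2.91.

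**Figure D5:**
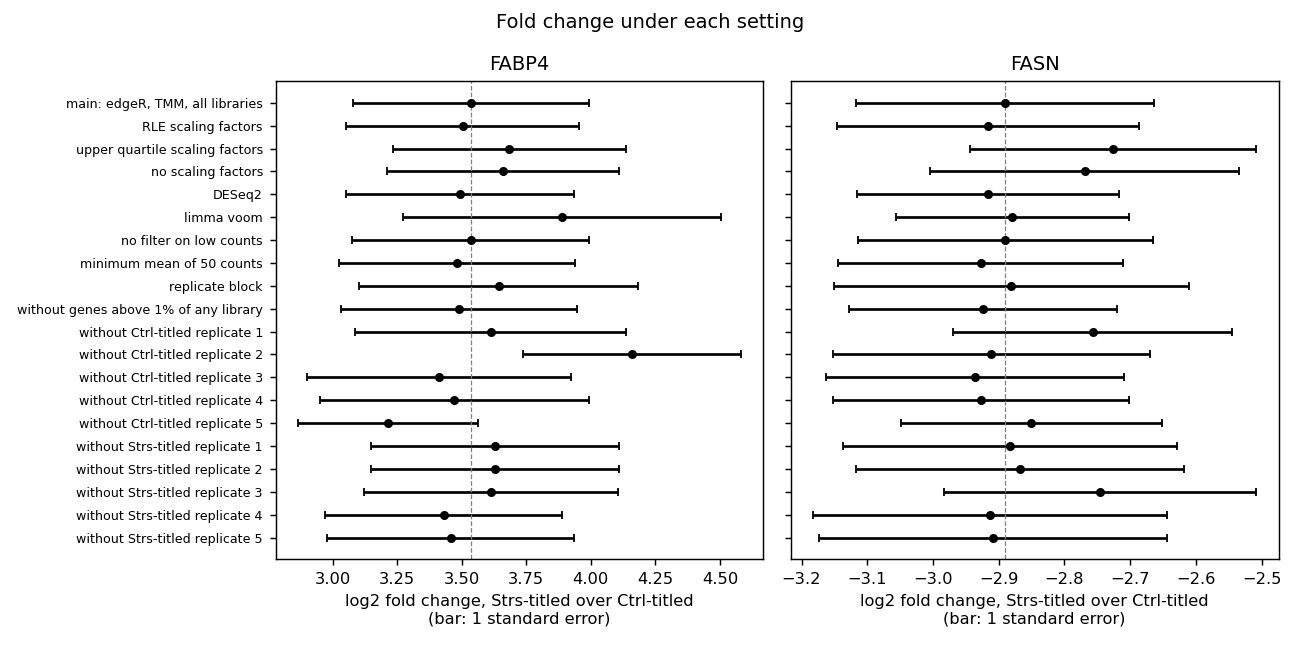
Log2 fold change, Strs-titled over Ctrl-titled, of FABP4 (left) and FASN (right) in the main fit (top) and in 19 alternative fits, with 1 standard error; dashed lines mark the main estimates of 3.53 and -2.89 and the axes do not start at zero. The farthest FABP4 estimate, 4.16, is the fit without Ctrl-titled replicate 2.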

How the data were processed

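The libraries were paired-end and not stranded, per the labels' protocols, so reads of an overlapping antisense gene cannot be told apart. The authors deposited raw read counts of 7052 Ensembl identifiers in 10 columns, each matching 1 title. Per the submitters' processing notes, the tools were featureCounts, STAR, FastQC, fastp 0.12.5 and DESeq2 1.26.0, and the build ARS-UCD1.2. The table's own name says, in Spanish, that zeros and "RP" were removed, without spelling out RP; 226 genes still have a 0 in some library. Not given in the sources used here are the annotation release, the counting settings and the exact selection rule.

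The fit used edgeR 4.0.16 in R 4.3.3 on all 10 libraries and all genes: filterByExpr (7047 genes kept, FABP4 and FASN among them), TMM factors, robust quasi-likelihood F tests and Benjamini-Hochberg adjustment over all tested genes. Standard errors are the log2 fold change divided by the square root of F. CPM values use table totals; profiles use TMM-scaled log2 CPM with a prior count of 2, over genes averaging 20 counts or more. Within-library ratios and ranks were tested by exact permutation over 252 divisions of the libraries. Alternatives used limma 3.58.1 and DESeq2 1.42.0. The fit was also run on simulated data in which few genes differed. In these data 67.8% of genes passed the threshold, so that run cannot show how the fit behaves here.

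FABP4 and FASN were named by rule, with the 2 closest profiles of each. The genes and lists were chosen with earlier results of these data known. Lists of lipid pathways and cell type markers were not tested, because the gene table used here (assembly ARS-UCD2.0) had 0 rows with an Ensembl identifier. That assembly differs from the build of the counts, so no coordinates are given.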

Additional observations from a re-analysis of the deposited data

Results flagged for a closer look

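In 2 of the 12 groups of values checked (levels, ranks and the ratio of FABP4 and FASN, and table totals), the gap between an extreme library and its nearest neighbour was large for the range of the group. Chance alone gives such a gap in about 1 group in 20. FASN ranked 239 by count in Strs-titled replicate 3, against 183 in the next library of that group, and without that library its log2 fold change was -2.75 (edgeR adjusted p = 5.7e-07). The table total of Strs-titled replicate 5 was 2453542 counts, against 6701794 in the next lowest of its group.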

How the results depend on the processing

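The 4775 genes called in the main comparison (2506 higher, 2269 lower) numbered 4265 (limma voom) to 4911 (DESeq2) over scaling, tool, filter and block alternatives and 4510 to 4708 without 1 library. FABP4 and FASN kept their direction and passed the threshold in all 19 fits each. With upper quartile factors the median gene shifted from 0.11 to 0.27 in log2 fold change, FABP4 to 3.68 and FASN to -2.73. Deviations from the group mean correlated between libraries of equal replicate number at -0.081 to 0.026. By these correlations, 1 of 5 Ctrl-titled and 2 of 5 Strs-titled libraries matched best with their own number. These values gave no sign of pairing by number, but they are not a test and cannot exclude it. Adding the replicate block gave 4568 calls; FABP4 had a log2 fold change of 3.64 (edgeR adjusted p = 0.00036) and FASN one of -2.88 (edgeR adjusted p = 6.9e-06). Paired by number, the ratio difference of 6.77 and the mean rank differences of -5165 (FABP4) and 175 (FASN) had a two-sided exact sign-flip p of 0.0625, the smallest that 5 pairs allow. Groups that do not overlap reach that value under any pairing. Without 1 library the ratio difference was 6.14 to 7.21, and with a pseudocount of 2 it was 6.39. Ranks were added after seeing the data. Depth limits FABP4 in Ctrl-titled libraries, where it had at most 20 reads.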
